A study of Rattus norvegicus with 6 samples.

Results

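The core cardiac transcription factors are the small set of DNA-binding proteins and partners that commit mesoderm to the heart and switch on the genes of the contracting muscle cell. They were taken as 10 genes, Nkx2-5, Gata4, Gata6, Tbx5, Tbx20, Mef2c, Hand1, Hand2, Srf and Myocd, and were found on the array by gene name among the probes that are no controls. Each gene had 1 probe, so that 10 of the 30367 probes on the array were described. All 10 probes were well above background on all 6 arrays.

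The RNA came from the heart primordium, the tissue that forms the embryonic heart, of rat embryos on embryonic day 10. The strain is spelled Wister rat in the sample labels and Wistar in the study, with no genetic change and no treatment in either group. Primordia in which the heartbeat had not started made up the pre-heartbeat group (n = 3), and those in which it had the post-heartbeat group (n = 3), all from embryos of the same embryonic day, which were told apart by the shape of the primordium and by somite number. Each sample was hybridized to 1 array in 1 color, and how many primordia made up an array sample is not given in the sources used here. The comparison asks whether mRNA of the factors differed between tissue just before and just after the first beats.

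The factors belong to a few protein families. NKX2-5 is a homeodomain protein, GATA4 and GATA6 are zinc finger proteins, TBX5 and TBX20 are T-box proteins, HAND1 and HAND2 are basic helix-loop-helix proteins, and MEF2C and SRF are MADS-box proteins. Myocardin, the product of Myocd, does not bind DNA by itself and acts as a coactivator of SRF at CArG boxes, short AT-rich elements in the promoters of muscle and immediate early genes. In the early heart these factors bind next to each other at many of the same genes, including those of sarcomere proteins and natriuretic peptides, and they maintain each other's expression.

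Sequences are given for the genes on which the comparison turned. The probes of Tbx5, Tbx20 and Myocd are shown because Tbx5 was the gene whose groups did not overlap, Tbx20 the gene with a negative change, and Myocd the gene that reached an unadjusted p under 0.05 besides Tbx5 when the slide was taken into account. They are written 5′ to 3′ in lower case, as given in the array annotation, with positions on the rn4 genome. The Tbx5 probe lies at chr12:37957220-37969093 on the minus strand, a span of 11874 bases for 60 bases of probe, so that it joins exons across at least 1 intron. The Tbx20 probe lies at chr8:24392876-24392935 on the minus strand, and the Myocd probe at chr10:51498289-51498348 on the minus strand.
Tbx5: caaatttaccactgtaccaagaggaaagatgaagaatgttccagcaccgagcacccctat
Tbx20: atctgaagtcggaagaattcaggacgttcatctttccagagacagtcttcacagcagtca
Myocd: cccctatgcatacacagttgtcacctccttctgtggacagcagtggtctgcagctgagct

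The promoter of Srf is shown because SRF binds CArG boxes and genes with SRF as a regulator are described further on. RefSeq promoters of the GRCr8 assembly, 250 bases before to 50 bases after the start, were matched for 7 of the 10 genes, all but Gata4, Mef2c and Myocd. The 250 bases before the start of Srf lie at chr9:21923826-21924075 on the plus strand, and capitals mark the matches to the CArG box.
Srf promoter: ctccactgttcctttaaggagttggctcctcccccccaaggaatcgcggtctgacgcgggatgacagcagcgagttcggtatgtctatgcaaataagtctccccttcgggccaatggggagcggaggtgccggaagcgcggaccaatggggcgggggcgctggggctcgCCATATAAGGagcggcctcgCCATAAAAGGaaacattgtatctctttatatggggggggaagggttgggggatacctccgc
The first bases of these 2 matches lie at positions -81 and -61 from the start. A CArG box was found in 1 of the 7 promoters of the factors, that of Srf, and in 1.64% of all 33469 promoters. The MEF2 site was found in 0 of the 7 and in 3.29% of all promoters. The E-box CANNTG was found in 3 of the 7 (Nkx2-5, Tbx5 and Hand2) and in 72.1% of all promoters. The GATA motif AGATAA was found in Hand2 (11.6% of all promoters), the GATA motif TGATAA in Tbx5 (9.03%), the NKX2-5 motif AAGTG in Hand2 (46.2%), where it overlaps an E-box, and the T-box motif GTGTGA in none of the 7 (13.7%). Both strands were searched. A match describes letters and is no binding site by itself.

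Signals are log2 values of the processed intensity less the 75th percentile of each array, so that 0 is the brightness of the probe at that percentile. A probe's brightness depends on its sequence, and levels of single genes were therefore compared between groups for the same probe. The 6 arrays lay on 2 slides, slide 1 holding replicates 1 and 2 of the post-heartbeat group and replicate 1 of the pre-heartbeat group, and slide 2 the other arrays. Slides differed at an adjusted p under 0.05 for 3109 of the tested probes (16.1%), with the group in the limma model, and slides fell apart without overlap on principal component 1 (60.2% of the variance). For this reason the change of each factor is also reported with a slide block and for each slide alone.

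Among the 10 core factors, 0 passed an adjusted p under 0.05 between the groups by limma, against 0.145% of the 19299 probes tested (0.124% called higher and 0.0207% called lower). At an unadjusted p under 0.05 there was 1 factor, Tbx5, against 7.00% of tested probes (3.90% with a higher and 3.10% with a lower post-heartbeat mean). With the slide as a block the count was again 0, against 1.51% of tested probes, with 2 factors (Tbx5 and Myocd) at an unadjusted p under 0.05, against 9.63%. The study's own selection rule (at least 1.5 fold and p under 0.05 before adjustment) held 0 of the 10, against 1.90% of tested probes as higher and 1.16% as lower. The log2 change was above 0 for 9 of the 10 factors, against 44.7% of tested probes, and its median was 0.28 for the factors and -0.03 for all tested probes.

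**Figure D1:**
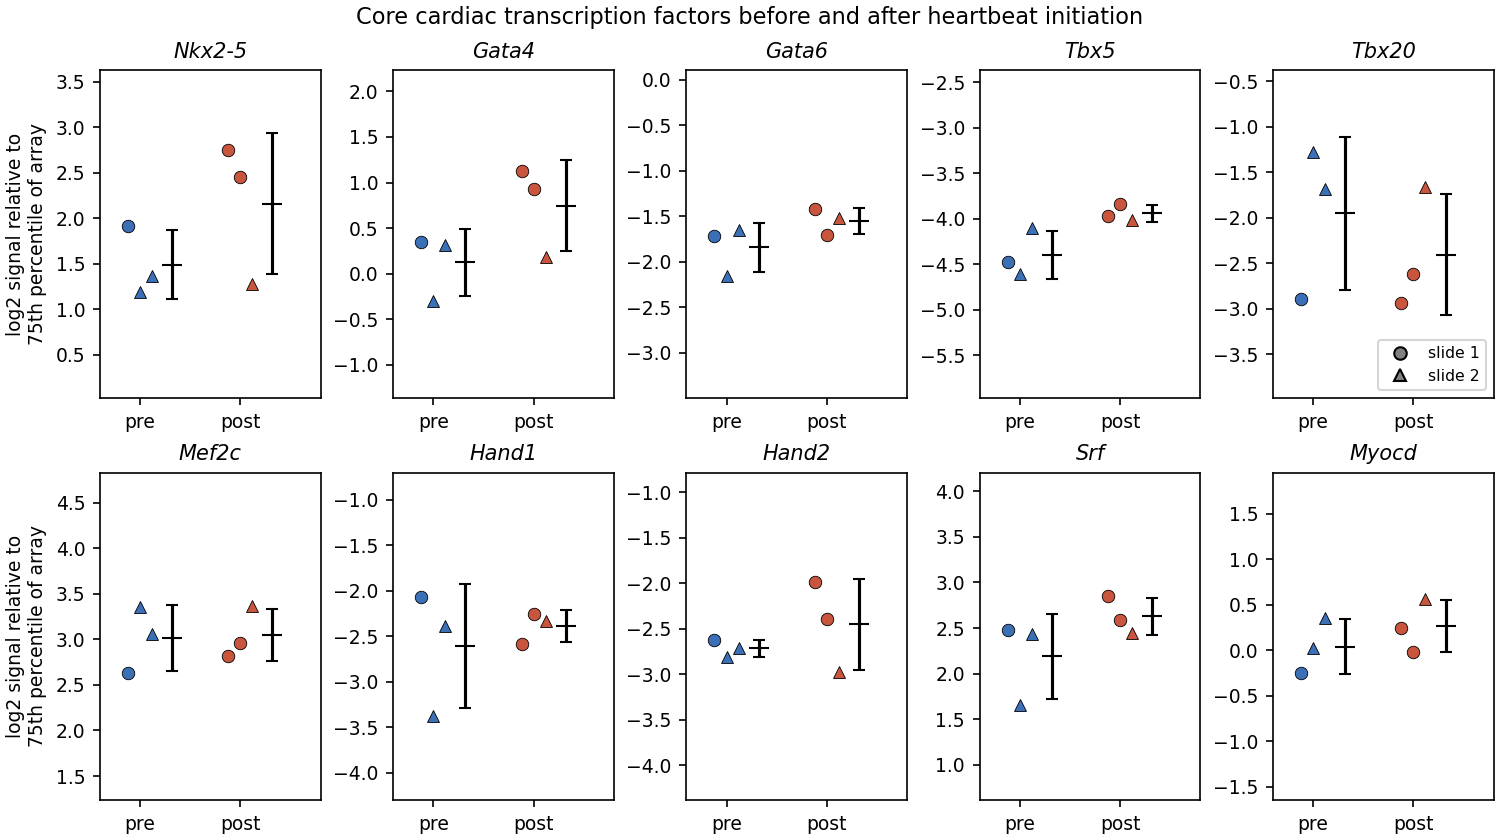
Signal of the 10 factors on each array (y axis, log2 less the 75th percentile of each array, with the same length of scale in each panel), with pre-heartbeat arrays in blue, post-heartbeat arrays in red, slide 1 as circles, slide 2 as triangles, and the mean ± SD of 3 arrays in black. The groups overlap for all factors except Tbx5, where pre-heartbeat arrays lie between -4.61 and -4.10 and post-heartbeat arrays between -4.01 and -3.84.

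Nkx2-5, the homeodomain gene that is among the earliest markers of cardiac progenitors, had signals of 1.91, 1.19 and 1.36 in pre-heartbeat replicates 1 to 3 and of 2.75, 2.45 and 1.28 in post-heartbeat replicates 1 to 3. Both high post-heartbeat values were from slide 1, and the post-heartbeat array on slide 2 lay among the pre-heartbeat arrays. The pre-heartbeat mean was 1.49 ± 0.38 (SD, n = 3) and the post-heartbeat mean 2.16 ± 0.78 (SD, n = 3), a log2 change of 0.67 (SE 0.40, 95% interval -0.27 to 1.61, adjusted p = 0.864 by limma). With the slide as a block the change was 0.35 (SE 0.19, adjusted p = 0.702), since the signal was lower on slide 2 by 0.98 (adjusted p = 0.0150 for the slide). Within slide 1 the difference was 0.69, and within slide 2 it was 0.0024. The probe lies at chr10:16608802-16608861 on the plus strand.

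Gata4, whose product partners NKX2-5 and TBX5 at cardiac genes, had signals of 0.35, -0.30 and 0.32 before and 1.13, 0.92 and 0.18 after heartbeat initiation. As for Nkx2-5, the post-heartbeat arrays of slide 1 stood above all pre-heartbeat arrays and that of slide 2 did not. The change was 0.62 (SE 0.30, 95% interval -0.08 to 1.32, adjusted p = 0.809 by limma), and 0.42 (SE 0.21, adjusted p = 0.623) with a slide block. The differences within slides were 0.68 on slide 1 and 0.17 on slide 2. The Gata4 probe, at chr15:42473004-42473063 on the minus strand, is spotted 10 times on the array, and at least 8 of its spots were kept on every array.

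Gata6, a paralog of Gata4 that is also used in endoderm, had signals of -1.72, -2.15 and -1.65 before and -1.43, -1.70 and -1.52 after heartbeat initiation. The groups overlapped, with post-heartbeat replicate 2 next to pre-heartbeat replicates 1 and 3. Its change was 0.29 (SE 0.18, 95% interval -0.13 to 0.72, adjusted p = 0.864 by limma), and it was 0.16 within slide 1 and 0.38 within slide 2. The ratio of Gata4 to Gata6 on the same array was higher after heartbeat initiation by 0.33 on the log2 scale (SE 0.30, exact permutation p = 0.4), with 0.52 within slide 1 and -0.21 within slide 2. The Gata6 probe lies at chr18:2534368-2534427 on the plus strand.

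Tbx5, a T-box gene of the first heart field that is needed for the atria and the left ventricle, had signals of -4.48, -4.61 and -4.10 before and -3.97, -3.84 and -4.01 after heartbeat initiation. All post-heartbeat arrays were above all pre-heartbeat arrays, which held for 1 of the 10 factors and for 5.38% of tested probes, while 0 factors and 6.17% of tested probes were apart in the other direction. The pre-heartbeat mean was -4.39 ± 0.26 (SD, n = 3) and the post-heartbeat mean -3.94 ± 0.089 (SD, n = 3), and the change was 0.45 (SE 0.17, 95% interval 0.046 to 0.86, unadjusted p = 0.0338 and adjusted p = 0.626 by limma). With the slide as a block it was 0.46 (SE 0.17, adjusted p = 0.417), and the differences within slides were 0.57 and 0.34. The two-sided exact permutation test gave p = 0.1, the smallest value that 3 against 3 arrays allow. The probe was dim, with processed intensities from 46.9 to 105 units, and after normexp background correction the change was 0.18.

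Tbx20, a T-box gene of the myocardium and endocardium that restrains Tbx2, was the factor with a negative change. Its signals were -2.90, -1.28 and -1.68 before and -2.94, -2.62 and -1.66 after heartbeat initiation. The 3 arrays of slide 1 were low in both groups and the 3 arrays of slide 2 were high in both groups. The change was -0.45 (SE 0.49, 95% interval -1.60 to 0.69, adjusted p = 0.864 by limma), and with a slide block it was -0.03 (SE 0.18, 95% interval -0.44 to 0.38, adjusted p = 1.0), with the signal higher on slide 2 by 1.27 (adjusted p = 0.00450 for the slide). Within slide 1 the difference was 0.12, and within slide 2 it was -0.18. The log2 ratio of Tbx20 to Tbx5 had a change of -0.91 (SE 0.65, exact permutation p = 0.2), with -0.46 within slide 1 and -0.52 within slide 2.

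Mef2c, the MADS-box gene whose product drives genes of the sarcomere, had signals of 2.63, 3.36 and 3.06 before and 2.82, 2.96 and 3.37 after heartbeat initiation. Arrays of both groups were intermixed, and the lowest value of each group was on slide 1. The means were 3.02 ± 0.37 (SD, n = 3) and 3.05 ± 0.29 (SD, n = 3), a change of 0.04 (SE 0.24, 95% interval -0.52 to 0.60, adjusted p = 0.969 by limma), and with a slide block the change was 0.21 (SE 0.15, adjusted p = 0.848). The sign turned when pre-heartbeat replicate 1 or post-heartbeat replicate 3 was left out, to -0.16 and -0.12. The probe, at chr2:12329521-12329580 on the minus strand, is spotted 10 times on each array, and its listed transcript was not matched to a current symbol, so that the gene name is that of the array.

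Hand1 and Hand2 encode related basic helix-loop-helix proteins with different territories in the forming ventricles. Hand1 had signals of -2.07, -3.38 and -2.39 before and -2.59, -2.26 and -2.33 after heartbeat initiation. Pre-heartbeat replicate 2 was the lowest array, pre-heartbeat replicate 1 was the highest, and all post-heartbeat arrays lay between them. The change of Hand1 was 0.22 (SE 0.33, 95% interval -0.56 to 1.0, adjusted p = 0.868 by limma), with -0.36 within slide 1 and 0.56 within slide 2, and it was -0.16 without pre-heartbeat replicate 2.

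Hand2, the form of the right ventricle and the second heart field, had signals of -2.62, -2.81 and -2.71 before and -1.99, -2.39 and -2.98 after heartbeat initiation. The post-heartbeat arrays of slide 1 were above all pre-heartbeat arrays, and that of slide 2 was below all of them. Its change was 0.26 (SE 0.25, 95% interval -0.34 to 0.86, adjusted p = 0.864 by limma), with 0.43 within slide 1 and -0.22 within slide 2. The log2 ratio of Hand1 to Hand2 had a change of -0.04 (SE 0.50, exact permutation p = 0.9), and the slides gave opposite signs, -0.79 and 0.77. The probes lie at chr10:43423367-43423426 for Hand1 and at chr16:36324365-36324424 for Hand2, both on the minus strand.

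Srf, the MADS-box gene for the factor of CArG boxes, had signals of 2.48, 1.65 and 2.43 before and 2.85, 2.59 and 2.45 after heartbeat initiation. Pre-heartbeat replicate 2 was low, and the other two pre-heartbeat arrays were close to post-heartbeat replicate 3. The change was 0.44 (SE 0.25, 95% interval -0.16 to 1.04, adjusted p = 0.864 by limma), and 0.32 (SE 0.22, adjusted p = 0.846) with a slide block. It was 0.24 within slide 1 and 0.41 within slide 2. The probe lies at chr9:9797512-9797571 on the plus strand.

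Myocd, the coactivator of SRF in cardiac and smooth muscle, had signals of -0.26, 0.026 and 0.35 before and 0.25, -0.018 and 0.56 after heartbeat initiation. The groups overlapped over all arrays, and on each slide the post-heartbeat arrays were above the pre-heartbeat arrays of that slide. The change was 0.22 (SE 0.22, 95% interval -0.29 to 0.74, adjusted p = 0.864 by limma). With the slide as a block it was 0.37 (SE 0.15, 95% interval 0.014 to 0.73, unadjusted p = 0.0432, adjusted p = 0.483), and the difference was 0.37 within slide 1 and 0.37 within slide 2. The log2 ratio of Myocd to Srf had a change of -0.22 (SE 0.40, exact permutation p = 0.7).

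**Figure D2:**
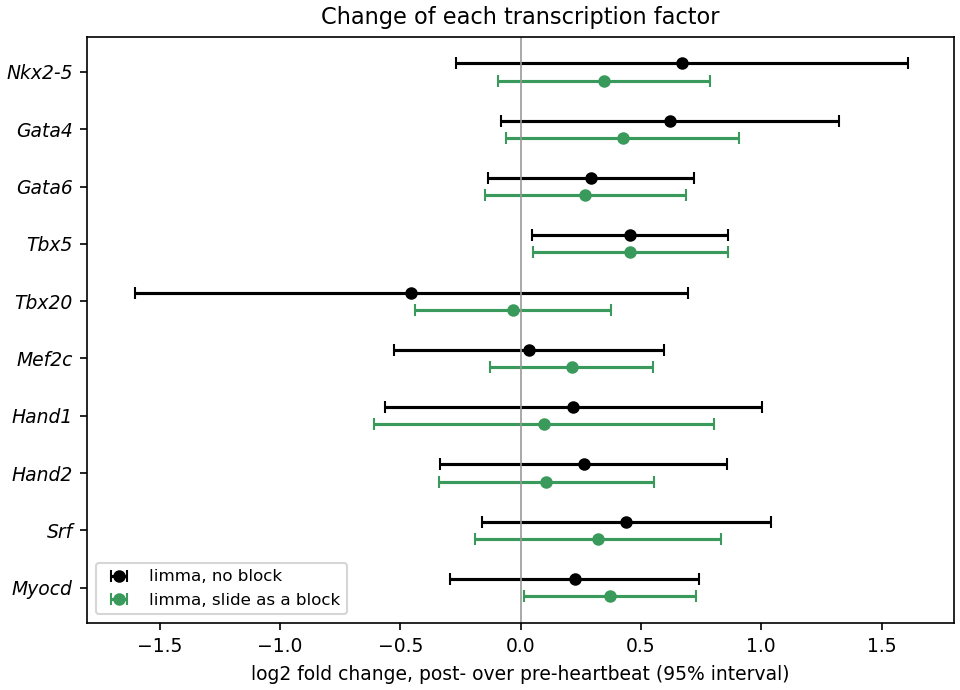
Log2 fold change of each factor, post- over pre-heartbeat (x axis), with its 95% interval from limma, without a block in black and with a slide block in green. Intervals include 0 for 9 of the 10 factors without a block and for 8 with it, and the interval of Tbx20 narrows from between -1.60 and 0.69 to between -0.44 and 0.38.

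Over the 10 factors, the two-sided exact permutation p ran from 0.1 (Tbx5) to 0.9 (Mef2c), and the adjusted p of limma from 0.626 to 0.969. None of these values shows that a factor was the same in both groups, because the intervals reach up to 1.61 (Nkx2-5) and down to -1.60 (Tbx20) on the log2 scale. The post-heartbeat mean was higher on both slides for 7 of the 10 factors (Nkx2-5 by 0.0024 on slide 2), against 24.7% of tested probes, and it was lower on both slides for 0 of 10, against 25.4%. The remaining 3, Tbx20, Hand1 and Hand2, had opposite signs on the slides. With the slide as a block, 9 of 10 changes were above 0, against 45.7% of tested probes, and their median was 0.30 against -0.02 for all tested probes. The difference between slides passed an adjusted p under 0.05 for 3 factors (16.1% of tested probes), with Nkx2-5 higher on slide 1 and Tbx20 and Mef2c higher on slide 2.

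**Figure D3:**
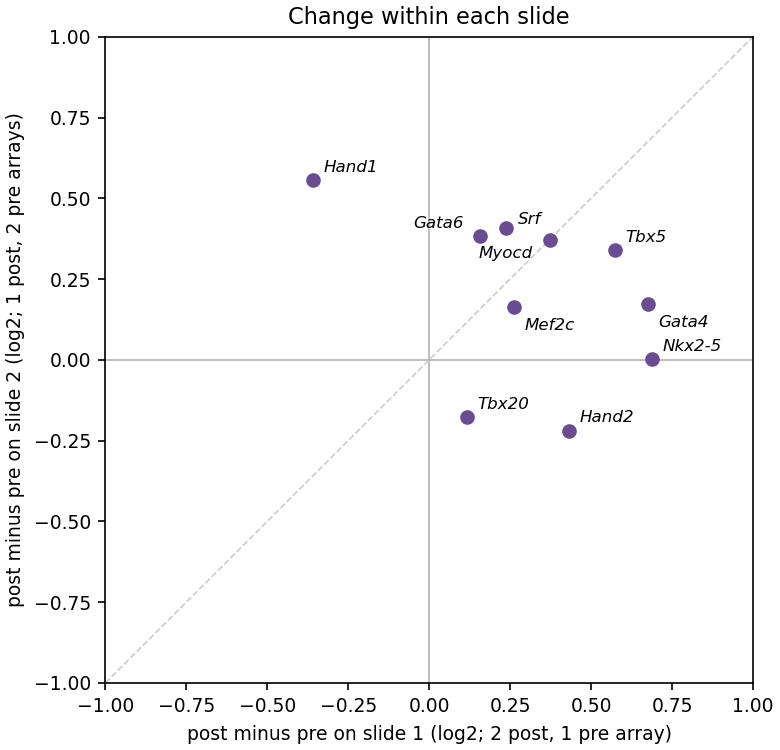
Difference between the post-heartbeat and pre-heartbeat means of each factor within slide 1 (x axis, log2) and within slide 2 (y axis, log2), with the dashed line marking equal differences. Myocd lies on the line with 0.37 on both slides, Tbx5 has 0.57 and 0.34, and Hand1 lies apart with -0.36 and 0.56.

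Profiles over the 6 arrays were compared as the root mean square difference of log2 signals after each probe's mean was removed, which takes no account of the groups. Among the factors, the closest pairs were Gata6 with Srf (0.17), Gata6 with Tbx5 (0.18), Gata4 with Srf (0.22) and Nkx2-5 with Gata4 (0.23). The farthest pair was Nkx2-5 with Tbx20 (1.23), whose signals were highest on opposite slides. The log2 ratio of Nkx2-5 to Gata4 had a change of 0.05 (SE 0.23, exact permutation p = 0.6). That of Nkx2-5 to Tbx5 had a change of 0.22 (SE 0.50, exact permutation p = 0.8). Counting the 4 ratios given earlier, 6 were compared, and the adjusted p was 0.9 for each of them. With 3 against 3 arrays the exact permutation p cannot fall below 0.1, so that no ratio could have passed 0.05.

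Over all tested probes with a symbol, the nearest profile to Tbx5 was that of Wwtr1 (0.053), the gene of the coactivator TAZ, followed by Acads (0.067) and Slc1a7 (0.073). Gata4 was nearest to Nos3 (0.106), the endothelial nitric oxide synthase, then Sun2 (0.106) and Hdac5 (0.108), a class II histone deacetylase that represses MEF2 proteins. Nkx2-5 was nearest to Rdh10 (0.106), an enzyme of retinoic acid synthesis and also near to Gtrgeo22 (0.122). Tbx20 was nearest to Etl4 (0.106), the endothelial and progenitor marker Cd34 (0.121) and Rap1gds1 (0.129). These likenesses are descriptions over 6 arrays that share the slides.

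Gata6 was nearest to Wnt7a (0.051), Ormdl3 (0.059) and Fam123a (0.059), and Mef2c to Nrep (0.042) and also near to RGD1306839 (0.058). Hand1 was nearest to Tmem86a (0.103), Rab22a (0.108) and Slc37a1 (0.109), and Hand2 to Stard10 (0.033), Aspscr1 (0.055) and Igfbp4 (0.074). Srf was nearest to Sorcs2 (0.043), Aebp1 (0.047) and Arsa (0.056), and Myocd to Ccdc8 (0.040), Qk (0.065), an RNA-binding protein gene, and Fam168a (0.066). None of the 3 nearest genes of any factor was another core factor.

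The genes around the core factors were taken as lists from general knowledge, with earlier results of these data known. Counts for the lists beside the share of all tested probes are therefore descriptions and no independent support. Of 16 paralogs, that is, other members of the NKX2, GATA, T-box, MEF2 and myocardin families, 13 had a tested probe, and 0 passed the adjusted threshold by limma with or without the slide as a block. The change was above 0 for 9 and below 0 for 4, with a median of 0.32 (0.10 with a slide block). At an unadjusted p under 0.05 there were 3 of the 13, all with higher means after heartbeat initiation, against 3.90% of tested probes in that direction. Tbx18, a gene of the sinus horns and the proepicardium, had a change of 1.61 (SE 0.43, adjusted p = 0.318), Tbx2, a repressor of chamber genes in the outflow tract and atrioventricular canal, one of 1.46 (SE 0.52, adjusted p = 0.572), and Nkx2-6, a relative of Nkx2-5, one of 0.66 (SE 0.20, adjusted p = 0.381). The probes of Tbx18 (mean signal -6.09 before and -4.49 after) and Nkx2-6 (-4.72 and -4.06) were dimmer than that of Tbx5. Changes of such dim probes are limited by signal over background.

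Of 21 cofactors, 19 were tested and 0 passed the adjusted threshold by limma with or without the slide as a block, while 14 changes were above 0, with a median of 0.30 (0.13 with a slide block). At an unadjusted p under 0.05 there were 6 of the 19, all with higher means, against the same 3.90% of tested probes. Smarcd3 (0.64), a cardiac subunit of the BAF chromatin complex, Fhl2 (0.63), a LIM protein that binds SRF, and Smyd1 (0.59), a muscle histone methyltransferase, were among them. The others were Hdac5 (0.69), Wwtr1 (0.50) and Hopx (0.47), a homeodomain protein that restrains SRF. Their adjusted p ran from 0.310 for Smarcd3 to 0.714 for Hdac5.

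Upstream regulators, the signals and mesodermal factors that precede the core factors, had 8 of 11 genes tested. Their median change was -0.10, with 3 changes above 0 and 5 below. Wnt11, a noncanonical Wnt ligand that promotes cardiac differentiation, rose by 1.17 on the log2 scale with a slide block (SE 0.21, adjusted p = 0.0437) and had a change of 1.20 (SE 0.21, adjusted p = 0.115) without it. The second heart field gene Isl1 had a change of -0.43 (SE 0.22, adjusted p = 0.845), chosen here after its value was seen.

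Several genes that the core factors are known to activate in heart muscle rose. Of 31 cardiac targets, 30 were tested, 27 changes were above 0, and the median was 0.82 (0.90 with a slide block). By limma 5 rose and 0 fell, against 0.124% of tested probes called higher. These were Myl2, the regulatory light chain of ventricular myosin, with 3.46 (SE 0.18, adjusted p = 0.00463), Pln, the phospholamban gene of the calcium pump, with 2.39 (SE 0.18, adjusted p = 0.0172), Nppa, the atrial natriuretic peptide and a target of NKX2-5, GATA4 and TBX5, with 1.84 (SE 0.15, adjusted p = 0.0201), Nppb, the brain natriuretic peptide, with 1.40 (SE 0.15, adjusted p = 0.0409), and Tnni3, cardiac troponin I, with 1.39 (SE 0.15, adjusted p = 0.0416). Leaving out any array left 0 or 1 of the targets past the threshold.

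With the slide as a block, 17 cardiac targets rose, against 1.09% of tested probes, and 1 fell. Besides the 5 these were Myh6, Myh7, Myl3, Myl4, Acta1, Actn2, Mybpc3, Des, Csrp3 and Smpx of the sarcomere and cytoskeleton, Ankrd1, a cardiac ankyrin repeat protein, and the calcium channel gene Cacna1c. The gene that fell was Gja1, of the gap junction protein connexin 43, with a change of -0.84 (SE 0.13, adjusted p = 0.0297). All 5 genes called without a block had groups that did not overlap, as had 22 of the 30 tested targets as higher, against 5.38% of tested probes. Promoters were found for 27 of the 31 cardiac targets, of which 3 held a CArG box and 5 a MEF2 site. Of all promoters 1.64% and 3.29% held them. These are unlike measures, since a gene was counted if any of its promoters matched and the shares are of single promoters. Whether the targets differ from all promoters was not tested. Cardiac targets with an unadjusted p under 0.05 alone, all with higher means after heartbeat initiation, were Tnni1 (0.73), Tnnc1 (0.63), Xirp1 (0.65), Gja5 (0.57) and Myl7 (0.61).

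Different kinds of SRF target were told apart. Of 12 smooth muscle targets, contractile genes that SRF and myocardin activate together, all 12 were tested, 10 changes were above 0, and the median was 0.70 (0.78 with a slide block). By limma 0 passed the adjusted threshold and 7 had a higher mean at an unadjusted p under 0.05 (3.90% of tested probes). With a slide block 6 rose (1.09% of tested probes), Cnn1 by 1.12, Tagln by 1.11, Myh11 by 1.02, Acta2 by 1.0, Myl9 by 0.85 and Tpm1 by 0.84 on the log2 scale. The seventh at an unadjusted p under 0.05 was Tgfb1i1 (0.67). Of 11 immediate early targets, genes that SRF activates soon after growth signals, 9 were tested. Of these, 0 passed with or without the block, and the median was 0.39 (0.26 with the block). Nr4a1 (0.70, SE 0.24, adjusted p = 0.531) was the immediate early gene with an unadjusted p under 0.05. A CArG box was found in 0 of 8 smooth muscle targets and 2 of 9 immediate early targets with a promoter, and a MEF2 site in 0 of both. Only exact matches from 250 bases before to 50 bases after the start were counted. A count of 0 therefore does not show that a gene lacks a CArG box, as variant or more distant ones were not searched. Whether the lists differ from each other or from the core factors was not tested.

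**Figure D4:**
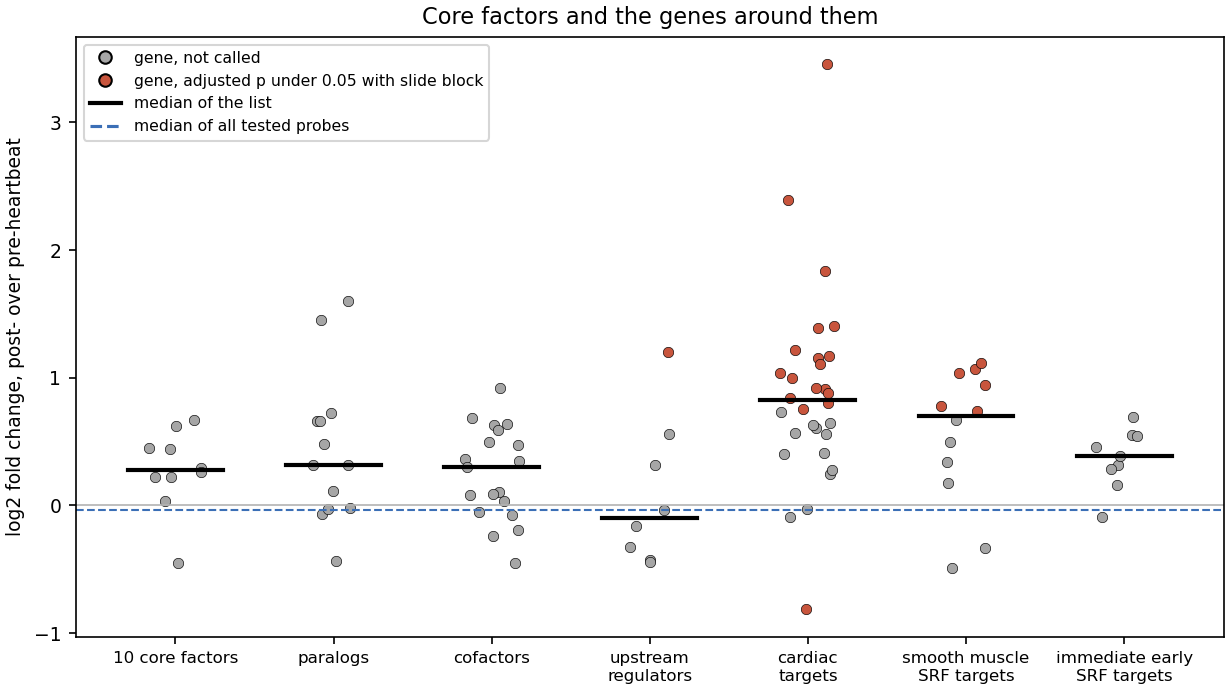
Log2 fold change, post- over pre-heartbeat (y axis), of each tested gene of the 10 core factors and of 6 lists around them, with red points for an adjusted p under 0.05 with a slide block, black bars for medians and a dashed line for the median of all tested probes. Medians are 0.28 for the core factors, 0.82 for cardiac targets and 0.70 for smooth muscle SRF targets, and red points are found among the targets (18 of 30 cardiac and 6 of 12 smooth muscle) and once among upstream regulators, with none among the core factors.

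The labelled tissue was checked by markers, of which the sum of linear signals over a list is given in units of each array's 75th percentile. Such a sum weights each probe by its brightness, so the part of the brightest probe is given with it. Cardiac muscle markers (7 of 7 tested, all 7 also cardiac targets) summed to between 346 and 594 before and between 632 and 780 after heartbeat initiation, with 33.8% to 40.0% of the sum from Actc1, and without it the groups were also apart. The 10 core factors summed to between 18.4 and 19.9 before and between 21.9 and 25.4 after, with 27.9% to 55.7% from Mef2c, and without Mef2c the groups overlapped. In whole tissue, fewer cells of a type and less RNA per cell cannot be told apart.

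Endoderm markers (7 of 10 tested, with Sox17, Cdx2 and Shh not well above background) summed to between 47.0 and 50.4 before and between 31.1 and 39.3 after heartbeat initiation. Ttr, the gene of transthyretin, gave 68.9% to 87.7% of this sum, and the other 6 summed to between 6.21 and 14.6 before and between 6.94 and 10.1 after, with overlap. Endothelial markers (8 of 8 tested) summed to between 18.8 and 19.3 before and between 13.8 and 15.1 after, of which Kdr, a receptor of vascular endothelial growth factor, gave 63.2% to 76.2%, and the other 7 summed to between 4.6 and 5.89 before and between 4.72 and 5.07 after, with overlap. None of these markers passed the adjusted threshold by limma, and Ttr (-0.58), Epcam (-0.42) and Kdr (-0.55) had an unadjusted p under 0.05, against 3.10% of tested probes with a lower mean. With a slide block 0 passed as well. At an unadjusted p under 0.05, 4 of the 7 endoderm markers were then lower and 0 higher. Of the 8 endothelial markers 1 was lower and 1 higher. Over all 19297 tested probes with complete values, 817 were lower and 1042 higher in that fit. Gata4 and Gata6 are also expressed in endoderm, and Tbx20, Mef2c and Hand2 also in endothelial or endocardial cells.

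Of 8 neural ectoderm markers 3 were tested, and Pax6, Zic1 and Hes3 were among those not well above background. Otx2 fell by 1.56 on the log2 scale (SE 0.14, adjusted p = 0.0201 by limma), while Sox2 had a change of -0.21 (SE 0.42) and Lhx2 one of 0.43 (SE 0.51), neither past the threshold. Their sum was between 6.36 and 7.35 before and between 2.46 and 3.02 after heartbeat initiation, with 71.1% to 93.7% from Otx2, and the sum of the other two overlapped between the groups. Paraxial mesoderm markers (4 of 7 tested) summed to between 21.7 and 24.2 before and between 25.2 and 26.8 after, with 60.1% to 63.0% from Tcf15. Without Tcf15 the groups were also apart, with 8.66 to 9.29 before and 9.59 to 10.0 after. This remainder rests on Pax3, with a mean log2 signal of 3.10 before, against -1.72 for Foxc2 and -6.07 for Tbx6. The change of Pax3 was 0.12 (SE 0.13, adjusted p = 0.864 by limma). With a slide block 3 of the 4 paraxial mesoderm changes were above 0 and 1 below. Erythroid markers (6 of 8 tested, Gata1 not well above background) summed to between 2.22 and 4.36 before and between 3.57 and 6.12 after, with 44.5% to 79.3% from Hba-a2. The other 5 summed to between 0.744 and 1.79 before and between 1.96 and 2.23 after, without overlap. Hbb, the brightest of these 5, had a mean signal of -0.55 before and 0.67 after. Hbb (1.22) and Hbe1 (1.04, on a probe that the array names Hbe2) had an unadjusted p under 0.05 by limma. Of the 6 erythroid changes 4 were above 0 and 2 below (Alas2 -0.61 and Klf1 -0.25), and with a slide block 3 were above and 3 below. Proepicardial markers (4 of 6 tested, Wt1 not well above background) summed to between 1.10 and 1.40 before and between 1.21 and 1.5 after, with 75.8% to 90.5% from Upk1b. The sum of the other 3 overlapped between the groups. With a slide block 2 of the 4 proepicardial changes were above 0 and 2 below. Tcf21 had a change of -0.81 (adjusted p = 0.0640 by limma) and Tbx18 one of 1.47 (adjusted p = 0.175) in that fit.

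Averaged as log2 signals, each probe has the same weight. By this measure endoderm, endothelial, neural ectoderm, paraxial mesoderm, erythroid and proepicardial markers overlapped between the groups. Cardiac muscle markers did not, with a highest pre-heartbeat average of 4.996 and a lowest post-heartbeat average of 5.287. The core factors did not overlap either, but by a narrow margin, with -0.501 and -0.466 for the same averages. How often other lists of probes lie apart in this way was not tested. The part of cell composition in the values of the core factors was not tested.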

How the data were processed

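RNA of heart primordia on embryonic day 10 was measured on 1-color Agilent arrays, 3 for each group. The authors deposited the processed signal of each spot, an intensity from which Feature Extraction 10.7.3.1 had subtracted background, with no normalization between arrays. A table of ratios was deposited as well, shifted by the authors to the 75th percentile and divided by a baseline per probe. After 1 constant shift for each pair of arrays was removed, both gave array-to-array differences within 0.01 (log2) for 100% of probes. Here, control spots and outlier spots were left out, the 75th percentile of each array (1143 to 1694 intensity units) was subtracted on the log2 scale, and spots of a probe were averaged. On each array 39375 to 41327 of 58717 spots were well above background, and 0 were saturated. Probes well above background (at least 0.5 of spots) on all 3 arrays of at least 1 group were tested (19299), of which 2 lacked a value on an array.

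Groups were compared with limma 3.58.1 in R 4.3.3, with Benjamini-Hochberg adjustment over all tested probes and a threshold of 0.05, and by exact permutation of arrays. The procedure was tested on simulated data. Slide numbers were read from the array identifiers. The series calls the samples biological replicates, and p-values measure the spread between these samples. The number of arrays limits the precision. The 10 genes and all lists were chosen with earlier results of these data known. Genes of the lists were named if called with or without the slide as a block or if their unadjusted p was under 0.05, with the 3 nearest profiles for each core factor, of which some genes are not reported here. Where a gene had several probes, the brightest tested one stood for it. Alternatives were quantile normalization, the percentile over detected probes, normexp (offset 50), the authors' ratios, other filters, the slide or replicate block, the methods' test (Tukey HSD), an intensity trend and leaving out each array. The slide block and left-out arrays for the target lists, and differences within slides, were added after the values had been seen. Array positions are of rn4 and promoters of GRCr8, and exon or UTR annotation of rn4 was not used here.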

Additional observations from a re-analysis of the deposited data

How the results depend on the processing

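The count of core factors past the threshold was 0 under every alternative run. Over the alternatives, the lowest adjusted p of any factor was 0.227 (Nkx2-5). Of the 10 log2 changes, 8 kept their sign under all alternatives, from 0.35 to 1.11 for Nkx2-5, 0.41 to 0.90 for Gata4, 0.14 to 0.39 for Gata6, 0.18 to 0.60 for Tbx5, -0.93 to -0.03 for Tbx20, 0.03 to 0.53 for Hand2, 0.17 to 0.59 for Srf and 0.08 to 0.38 for Myocd. The other filters, the replicate block, the methods' test and the intensity trend leave each log2 change as it was by design. No sign could turn under them. The percentile over detected probes and the authors' ratios move all changes by the same amount. Mef2c turned to -0.16 and -0.12 without pre-heartbeat replicate 1 and post-heartbeat replicate 3, and Hand1 to -0.16 without pre-heartbeat replicate 2. With an array left out, Mef2c ran from -0.16 to 0.21 and Hand1 from -0.16 to 0.49. Over all tested probes, 24 were called higher and 4 lower. Called higher were 11 after quantile normalization, 12 with the percentile over detected probes, 43 after normexp, 10 with the authors' ratios and 1 (0 lower) without a filter. An intensity trend gave 38 higher and 7 lower, the slide block 211 and 81, the methods' test after Benjamini-Hochberg adjustment 0 and 0, and the methods' selection 366 and 223. Leaving out an array left 0 to 1 higher and 0 to 1 lower. The slide block gave 17 cardiac targets higher and 1 lower (5 and 0 without it) and 6 smooth muscle targets higher (0 without it), and leaving out an array left 0 to 1 cardiac and 0 smooth muscle targets. The cause of these shifts was not tested. With the replicate block, 110 probes were higher and 56 lower, with 0 core factors. Deviations of same-numbered arrays correlated at 0.65, -0.28 and 0.49, so that the numbers were not taken as pairs. The mean of all probes of a gene was not run, as each core factor had 1 probe. Changes of dim probes such as that of Tbx5 are limited by signal over background.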
